A study of Mus musculus with 95 samples.

Results

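The proteasome is the barrel-shaped protease that breaks down proteins tagged with ubiquitin. Its constitutive subunits are described here in nucleus accumbens of the mouse, a forebrain region of reward and habit. A gene was included if its whole symbol is Psma, Psmb, Psmc or Psmd followed by a number, it codes for protein, it is not one of the immunoproteasome genes Psmb8, Psmb9 and Psmb10, and its mean over all libraries reached 1 CPM (counts of a gene scaled to a common library total). That left 34 genes of 55471 features, out of 39 symbols of this form. The lowest gene inside the threshold was Psmd5 at 43.0 CPM. Outside it were Psma8, a testis form of an alpha subunit, at 0.746 CPM and Psmb11, the thymus form of a catalytic subunit, at 0.104 CPM. All 34 members passed the filter on low counts in each comparison, and no library had a member at 0. The lowest count of any member in any library was 262 (Psmd5) and the highest 15077 (Psma7).

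The study compared RNA on astrocyte ribosomes with RNA of the whole tissue punch in ethanol-dependent, non-dependent and ethanol-naive mice. All mice carried the transgene Tg(Aldh1l1-EGFP/Rpl10a)JD130Htz/J on a B6;FVB background, in which regulatory sequence of the astrocyte gene Aldh1l1 drives a ribosomal protein, Rpl10a, fused to EGFP. RNA pulled down with these ribosomes is called IP below, and RNA set aside from the same punch beforehand is called input. Dependent mice went through CIE-2BC, in which exposure to ethanol vapour (CIE, 5 rounds) is combined with voluntary drinking from a choice of bottles (2BC). Non-dependent mice had 2BC alone, and naive mice had no ethanol. Both sexes were used, and the labels give no age. IP libraries came from 18 dependent, 13 non-dependent and 15 naive mice, and input libraries from 18, 15 and 16. Mice belonged to 6 batches, and the labels do not say what a batch shares. Batch I held no naive mouse, batch L no non-dependent mouse, and batches C and G 1 dependent female each.

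In the 26S proteasome a hollow 20S core is capped by 19S regulatory particles. The core is made of outer alpha rings, which gate the entry, and inner beta rings, of which Psmb5, Psmb6 and Psmb7 carry the protease sites. The 19S base has a ring of ATPases, Psmc1 to Psmc6, that unfolds substrates and feeds them into the core, and a lid that removes ubiquitin. Cells that lose proteasome capacity raise most subunit genes together through the transcription factor Nrf1 (gene Nfe2l1), and interferon replaces the catalytic subunits by Psmb8, Psmb9 and Psmb10. Protein and particle levels were not measured in the data used here.

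An IP library held 14314236 to 27146790 counts and an input library 12803108 to 23948193. The summed level of 10 astrocyte markers was 24470 ± 2298 CPM in IP (SD, n = 46) and 2870 ± 299 CPM in input (n = 49), and all 10 were called higher in IP. All 12 neuron, 8 microglia and 7 endothelial markers were called lower in IP, as were 6 of 8 oligodendrocyte markers, with 1 higher. None of these markers was at 0 in any library. IP libraries may thus also hold RNA of other cells, but the source of these counts was not tested. The summed neuron markers were 4028 ± 561 CPM in IP and 9739 ± 1254 CPM in input. In 1 mouse of batch K the IP and input libraries deviated from their groups in opposite directions (r = -0.33), and leaving it out changed no count of called members. In such bulk samples, fewer cells of a type and less RNA per cell cannot be told apart.

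Sequence upstream of the genes was looked at first, because Nrf1 binds antioxidant response elements in proteasome promoters of several species. The core of that element, TGACNNNGC, was searched on both strands from 250 bases before to 50 bases after the gene start in RefSeq promoters (GRCm38.p6). These were found for 28 of the 34 members. The element was present in 5 of 28 (17.9%), against 3781 of 27025 promoters of the same length. The longer form TGACTCAGC was in 0 of 28 against 0.5%, and CCAAT, the box bound by NF-Y, in 11 of 28 (39.3%) against 41.1%. These shares are near those of promoters in general. A stretch around the match upstream of the start is given for each of these 5 genes, with the match in capitals, to show where it lies. Stretches stop at the start and at the upstream end of the sequence searched. They are written along the gene's own strand, so that a match on the other strand shows the reversed complement.
Psmb5 (chr14:54618019-54618057, minus strand): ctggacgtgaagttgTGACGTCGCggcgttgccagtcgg
Psmb6 (chr11:70525333-70525356, plus strand): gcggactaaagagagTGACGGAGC
Psmc6 (chr14:45329582-45329620, plus strand): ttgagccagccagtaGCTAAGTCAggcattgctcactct
Psmd9 (chr5:123228144-123228182, plus strand): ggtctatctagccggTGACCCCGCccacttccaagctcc
Psmd12 (chr11:107479278-107479304, plus strand): tctGCTGTGTCAcatttgcccccctca
Those in Psmb6, Psmd9 and Psmb5 lay closest to the gene start, at 9, 31 and 47 bases upstream, while those in Psmc6 and Psmd12 lay 227 and 247 bases upstream. A match is a string of letters, and no binding was measured in these data.

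By the median of each role in IP, the structural beta genes had the highest transcript levels and the assembly chaperones the lowest. Levels between genes are compared as CPM, scaled by the TMM method for library composition, per kilobase of the principal transcript. In IP the order began with Psmb6 (median 563, range 385 to 909), Psma7 (510, 358 to 854), Psmb3 (410, 245 to 706) and Psmb2 (332, 237 to 550). The ranges of these 4 overlapped over the 46 libraries. The 4 structural beta genes, Psmb1 to Psmb4, had mean levels of 230 to 471 CPM per kilobase in IP. The alpha genes Psma1 to Psma6 lay at 123 to 240. Of the catalytic genes, Psmb7 was far below Psmb6, at a median of 71.1 and a range of 43.4 to 87.1, which did not overlap the range of Psmb6. Psmb5 lay between them at a median of 138 (73.6 to 216).

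Within the 19S particle the ATPases ran from Psmc6 at a mean of 32.7 to Psmc5 at 226 CPM per kilobase in IP. The scaffolds Psmd1 and Psmd2, on which substrate shuttles dock, had means of 36.8 and 48.2, and the ubiquitin receptor Psmd4 had 157. In the lid, Psmd7, the partner of the deubiquitinase Psmd14, had the highest mean, at 168, and Psmd14 itself had 74.99. The lid scaffolds Psmd3, Psmd6, Psmd8, Psmd11, Psmd12 and Psmd13 lay between 44.7 (Psmd13) and 136 (Psmd8). Psmd5, Psmd9 and Psmd10, which escort the ATPases during assembly and are not part of the finished particle, had 9.55, 22.4 and 37.4. Psmd5 and Psmd9 were the lowest of the 34, while Psmd10 lay just above Psmc6 and Psmd1. In input Psmb6 was again first (mean 660) and Psmd5 last (mean 9.51).

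The immunoproteasome genes were below most constitutive genes in both fractions. Their median levels per kilobase in IP were 4.87 (Psmb8), 4.60 (Psmb9) and 63.8 (Psmb10). Psmb8 and Psmb9 also spread far more than any constitutive gene, from 1.76 to 109 and from 1.62 to 111. The highest library of Psmb8 lay within the range of Psmb5, whose place its product takes, while the highest of Psmb9 lay under the lowest of Psmb6, its own counterpart.

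**Figure D1:**
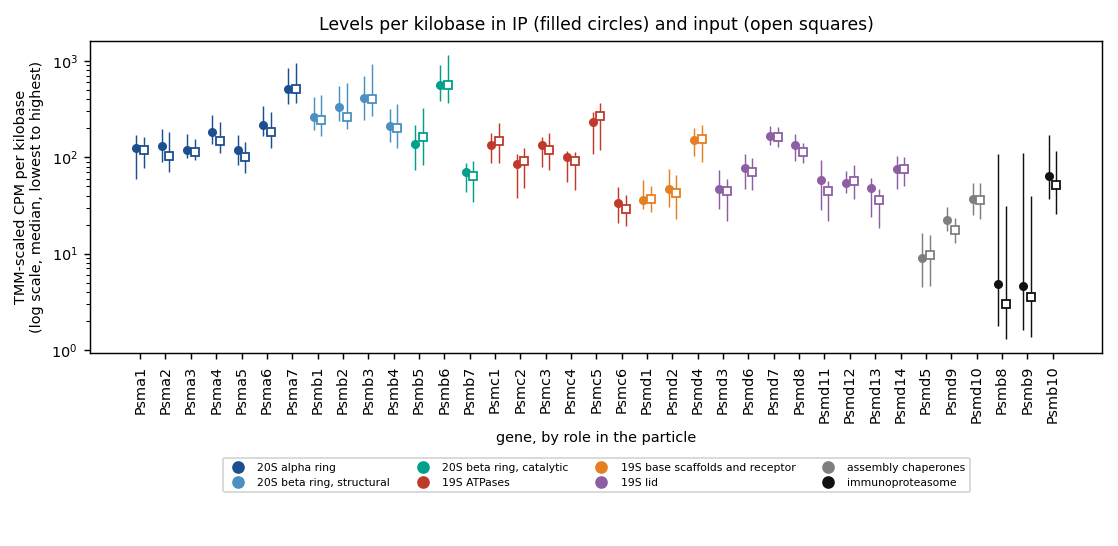
Level of each member and of the 3 immunoproteasome genes as TMM-scaled CPM per kilobase of the principal transcript (log axis). Points are medians and bars run from the lowest to the highest library, with 46 IP libraries as filled circles and 49 input libraries as open squares; Psmb6 and Psma7 were highest, Psmd5 lowest among the members, and Psmb8 and Psmb9 spread most.

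The next question was whether astrocyte ribosomes carry proteasome transcripts in the same proportions as the tissue. Summed over the 34 members, the level was 7103 ± 840 CPM in IP (SD, n = 46) and 6775 ± 867 CPM in input (n = 49), and the ranges, 5802 to 8646 and 5096 to 8876, overlapped. Against the input of the same mouse, 16 members were higher in IP and 4 lower, and the 14 others were not called. By the same test (quasi-likelihood F test of edgeR with the mouse as a block, adjusted p at or under 0.05), 78.5% of 21743 genes differed, 33.6% higher and 45.0% lower. Of the members 58.8% were called, 47.1% higher and 11.8% lower, and whether these shares differ from those of all genes was not tested. Their differences were small: the median log2 fold change was 0.04, against -0.16 over all genes, and the extremes were -0.30 and 0.43.

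Of the 34, Psmd11 and Psmd13 of the lid stood highest. Psmd11 had a median of 164 CPM in IP (81.1 to 267) and 126 CPM in input (61.9 to 162). The ranges overlapped, but IP was the higher library in 41 of 46 mice, and the log2 fold change was 0.43 ± 0.04 (SE, adjusted p = 3.25e-13, edgeR). Psmd13 was at 95.5 CPM in IP (48.2 to 122) and 71.7 CPM in input (36.6 to 93.0). It was higher in IP in 42 of 46 mice, by 0.37 ± 0.04 (adjusted p = 1.34e-11, edgeR). Psmd13 overlaps Sirt3 on the opposite strand over 342 bases, and whether the counting used strand is not given in the sources used here. Of the other lid genes, Psmd3, Psmd6 and Psmd8 rose in IP, and Psmd7, Psmd12 and Psmd14 were not called, with log2 fold changes of 0.03, -0.06 and 0.01.

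In the alpha ring, 4 of 7 genes rose in IP. Psma4 had the smallest p of all members. Its level was 216 CPM in IP (162 to 319) and 174 CPM in input (128 to 269), higher in IP in 43 of 46 mice, with a log2 fold change of 0.32 ± 0.03 (adjusted p = 1.44e-15, edgeR). Psma2, Psma5 and Psma6 were the others, at 0.20 to 0.27. Psma2 shares 8943 bases with AW209491 on the same strand. Psma1, Psma3 and Psma7 were not called, with 95% intervals of the log2 difference within -0.10 and 0.11.

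The catalytic genes went in different directions. Psmb5, the chymotrypsin-like site, was at a median of 124 CPM in IP (66.2 to 194) and 147 CPM in input (74.8 to 292). IP was the higher library in 7 of 46 mice, and its log2 fold change of -0.30 ± 0.04 was the lowest of the members (adjusted p = 1.77e-10, edgeR). Psmb6, the caspase-like site, also fell in IP, by 0.14 on the log2 scale (449 CPM in IP, 307 to 726, and 453 CPM in input, 294 to 925; adjusted p = 0.000618, edgeR). Psmb7, the trypsin-like site, was at 82.5 CPM in IP (50.3 to 101) and 74.8 CPM in input (39.5 to 105). It was called higher by 0.12 ± 0.04 (adjusted p = 0.00281, edgeR), and it overlaps Nek6 on the opposite strand. Among the structural beta genes Psmb2 was called higher (0.15) and Psmb1, Psmb3 and Psmb4 were not called (0.03, -0.05 and 0.04).

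The ATPases were split as well. Psmc3, Psmc4 and Psmc6 were called higher in IP, at 0.14 to 0.17, and Psmc1 and Psmc5 lower, at -0.14 ± 0.03 (adjusted p = 0.000227, edgeR) and -0.18 ± 0.05 (adjusted p = 0.000263, edgeR). Psmc1 was at a median of 213 CPM in IP (138 to 287) and 236 CPM in input (138 to 360). Psmc5 was at 308 CPM in IP (141 to 387) and 353 CPM in input (157 to 485). Psmc2 was not called (-0.07). Psmd2 rose in IP by 0.23 and Psmd9 by 0.30, while Psmd1, Psmd4, Psmd5 and Psmd10 were within -0.01 and 0.02 of equality and not called.

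The directions depend on how IP and input are brought to one scale. With library size alone the members split into 7 higher and 18 lower, and the median of all genes moved from -0.16 to -0.33. Psmb2, Psmb7, Psmc3, Psmc6 and Psmd6 then changed sign and lost their call, and Psma5, Psmc4, Psmd2 and Psmd3 lost theirs. With DESeq2 size factors the split was 13 and 8. Under each of the 3 scales Psmd11 stood highest and Psmb5 lowest of the 20 called members. A change of scale moves all genes by a similar amount, so this order could hardly change.

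**Figure D2:**
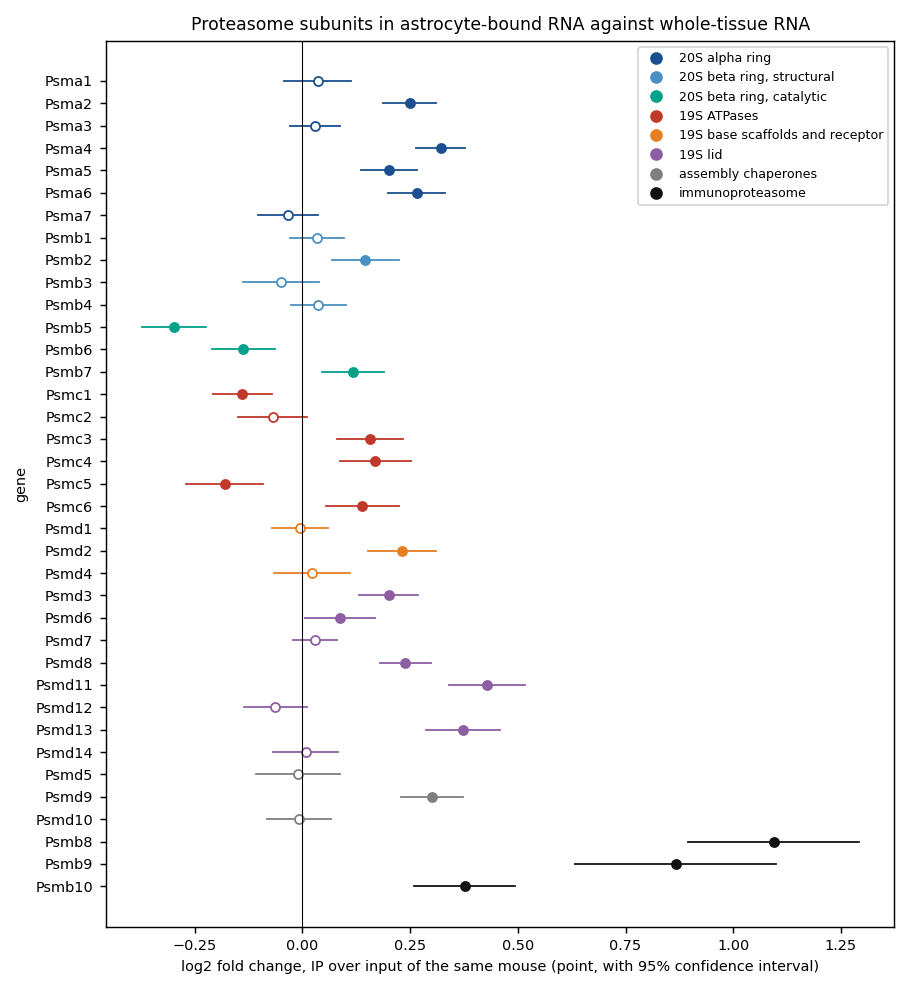
Log2 fold change of IP over input in 46 mice for the 34 members and the 3 immunoproteasome genes, by role, as points with 95% confidence intervals. Filled points were called at an adjusted p at or under 0.05 (edgeR); Psmd11 and Psmd13 stood highest and Psmb5 lowest among the members, and with library size alone as the scale Psmb2, Psmb7, Psmc3, Psmc6 and Psmd6 fell below 0.

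Genes that act around the particle were compared in the same way. All 3 immunoproteasome genes were higher in IP: Psmb8 by 1.09 ± 0.10, Psmb9 by 0.87 ± 0.12 and Psmb10 by 0.38 ± 0.06 on the log2 scale (adjusted p = 2.7e-15, 1.43e-09 and 6.27e-08, edgeR). Here 1 difference was fitted over all 3 treatments, and the groups were unlike. Psmb9 was at a median of 19.6 CPM in IP and 7.08 CPM in input in dependent mice. In non-dependent mice it was at 5.06 and 4.135 CPM, and in naive mice at 4.79 and 4.40 CPM. Of 5 genes, 4 activators and the inhibitor, 4 were called higher, led by the inhibitor gene Psmf1 (0.57) and Psme2 (0.57), a subunit of the interferon-inducible activator. Of 7 assembly and storage factors 4 rose, among them Psmg2 (0.25), Psmg1 (0.16) and Pomp (0.16), and none fell. Of 12 receptors, deubiquitinases and small subunits, 4 were higher and 7 lower, with Ubqln4 (-0.56), Ube3c (-0.55), Uchl5 (-0.44) and Txnl1 (0.36) at the smallest p. In the list of Nrf1, its processing enzymes and partners, 7 of 12 were higher and 3 lower. Nfe2l2, the gene of the related factor Nrf2, led it at 2.62, Vcp stood at 0.53 and Nfe2l1 itself rose by 0.25 ± 0.04.

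Treatments were compared next, first in IP. Between dependent and non-dependent mice, Psmd7 was the only one of 34 called, while 1.54% of 19979 genes were. Another 5 had an unadjusted p under 0.05. The median log2 fold change was 0.06 over the members and 0.00 over all genes, and the 95% intervals of all 34 lay within -0.29 and 0.33. Between dependent and naive mice Psmd7 was again the only call, against 4.67% of all genes, with a median of -0.01 and all intervals within -0.27 and 0.35. Both comparisons share the dependent mice. Recovery was looked at on counts simulated without batch or sex differences, unlike these data. In the first comparison the test recovered 1.5% of genes changed 1.2-fold and 34.4% of genes changed 1.5-fold. Most changes of these sizes were thus missed over the changed genes, which were drawn at random from all genes tested. How often such a change in a member would be missed was not tested.

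Psmd7 (chr8:107580381-107588464, minus strand, GRCm38) codes for the lid subunit that holds the deubiquitinase Psmd14 in place. In IP its level was 288 CPM in dependent mice (232 to 337), 244 CPM in non-dependent mice (214 to 299) and 254 CPM in naive mice (234 to 278). The dependent median lay above the highest naive library, but the ranges overlapped in both comparisons. The log2 fold change was 0.19 ± 0.05 against non-dependent mice (adjusted p = 0.0489, edgeR) and 0.18 ± 0.05 against naive mice (adjusted p = 0.0406, edgeR). In input the levels were 265 CPM (202 to 287), 248 CPM (207 to 286) and 252 CPM (212 to 327), and no difference was called. Within batches the IP difference from non-dependent mice was 0.19 in I, 0.32 in J and 0.06 in K, and that from naive mice 0.19 in J, 0.16 in K and 0.18 in L. The first call was lost when batch I, J or L was left out and the second when any of the 4 batches was, with log2 fold changes of 0.15 to 0.23 and 0.16 to 0.19. Psmd7 also had the lowest share of its variance tied to batch of the 34 members in IP (R2 0.063).

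**Figure D3:**
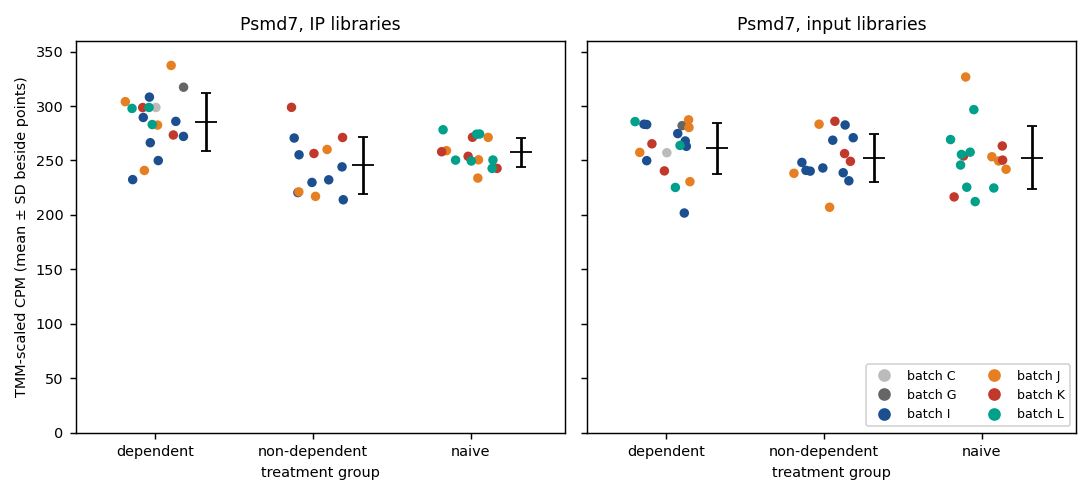
TMM-scaled CPM of Psmd7 in each IP and input library by treatment, coloured by batch, with the mean and SD beside the points. In IP the dependent libraries run from 232 to 337 and the naive ones from 234 to 278, so they overlap, and in input the 3 groups overlap throughout.

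The members with the next smallest p against non-dependent mice were Psma7 (0.17 ± 0.05, adjusted p = 0.116, edgeR) and Psma3 (0.19 ± 0.07, adjusted p = 0.203, edgeR). Against naive mice they were Psmd12 (0.19 ± 0.06, adjusted p = 0.0641, edgeR) and Psmd4 (0.16 ± 0.08, adjusted p = 0.282, edgeR). Psmd12 was at a median of 110 CPM in dependent mice (86.2 to 136), 93.3 CPM in naive mice (81.4 to 121) and 113 CPM in non-dependent mice (92.1 to 132). The medians of both groups with ethanol lay above the naive one, with overlapping ranges. Medians here are not adjusted for batch, and batch I held no naive mouse. In IP its geometric mean of Psmd12 was 118 CPM, against 96.8 to 106 CPM in J, K and L. DESeq2 called 2 members higher against naive mice, Psmd7 and Psmd12. None of the catalytic genes was called. Psmb5 was at 130 CPM in dependent mice (66.2 to 194), 110 CPM in non-dependent mice (66.2 to 179) and 146 CPM in naive mice (115 to 186). Its geometric mean in IP was 86.4 CPM in batch I, against 123 to 160 CPM in J, K and L. With batch in the fit, the log2 difference of Psmb5 was 0.14 against non-dependent mice (95% interval -0.02 to 0.30) and 0.02 against naive mice (-0.15 to 0.18). For Psmb6 these were 0.04 (-0.07 to 0.16) and -0.06 (-0.18 to 0.06), and for Psmb7 0.06 (-0.09 to 0.22) and -0.03 (-0.19 to 0.14).

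The immunoproteasome genes of the same libraries show the contrast. Psmb8 was at a median of 20.3 CPM in dependent mice (8.08 to 178), 5.93 CPM in non-dependent mice (4.16 to 13.1) and 5.26 CPM in naive mice (2.87 to 17.5). A few dependent libraries were very high, while the lowest overlapped the other groups. The fitted difference was 2.81 ± 0.44 from non-dependent mice and 2.12 ± 0.44 from naive mice (adjusted p = 0.000337 and 0.00266, edgeR). Psmb9 was higher by 2.89 ± 0.51 and 2.598 ± 0.53 (adjusted p = 0.00125 and 0.00203, edgeR). Psmb10 was higher by 0.78 ± 0.16 and 0.57 ± 0.17 (adjusted p = 0.00307 and 0.0356, edgeR). The intervals of Psmb8, Psmb9 and Psmb10 against non-dependent mice all began above the highest end of any constitutive interval, 0.33. Against naive mice this held for Psmb8 and Psmb9, while the interval of Psmb10 began below the highest end of a constitutive interval. Whether a pair of genes differs in its response was not tested. When batch I was left out, none of the 3 passed the test against non-dependent mice (adjusted p = 0.0868, 0.237 and 0.209, edgeR).

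Other proteasome lists moved in few members. Against non-dependent mice the interferon-inducible activator genes Psme1 (0.48) and Psme2 (0.49) were called higher among the 4 activators and the inhibitor, and Ubqln4 (-0.29) lower among 12 receptors and deubiquitinases. None of 7 assembly factors or 12 genes around Nrf1 was called. Against naive mice Mafg (0.38), a partner of Nrf1, and Nploc4 (0.38), which helps to extract it from the membrane, were called higher, and no gene of the other 3 lists outside the immunoproteasome was. Nfe2l1 was at -0.03 (-0.15 to 0.09) and -0.06 (-0.18 to 0.07), not called. The summed microglia markers in IP were at a median of 238 CPM in dependent mice (169 to 701), 208 CPM in non-dependent mice (169 to 257) and 229 CPM in naive mice (177 to 282). The medians were thus close, with the highest libraries in the dependent group. In IP 3 of 8 microglia markers were called higher against non-dependent mice and 0 against naive mice. In input 1 was called higher and 1 lower against non-dependent mice. The part of microglia in the values of Psmd7 and the immunoproteasome genes was not tested.

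**Figure D4:**
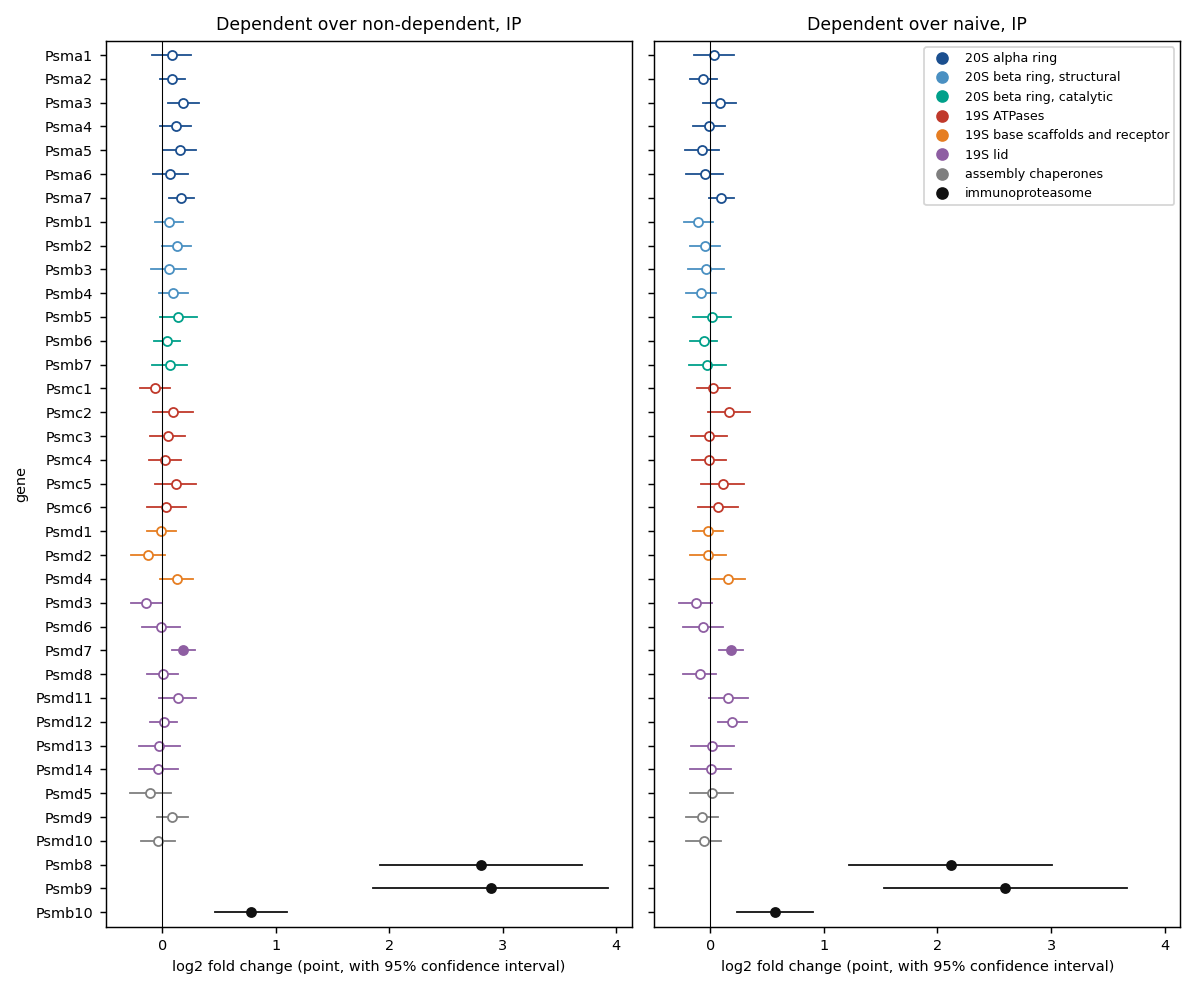
Log2 fold changes in IP with 95% confidence intervals for the 34 members and the 3 immunoproteasome genes, dependent over non-dependent mice on the left and over naive mice on the right. Filled points were called at an adjusted p at or under 0.05 (edgeR): Psmd7 among the members, at 0.19 and 0.18, and Psmb8, Psmb9 and Psmb10 in both panels.

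Drinking without the CIE rounds separates the non-dependent group from the naive one. Between them edgeR called 0 of 34 in IP, where 0.44% of genes were called. DESeq2 and limma voom also called 0, and 6 members had an unadjusted p under 0.05. These were Psma5 (-0.23 ± 0.09), Psma2, Psmb1, Psmb2, Psmb4 (-0.18 ± 0.08) and Psmd12 (0.18 ± 0.07), with adjusted p = 0.257, 0.361 and 0.299 for the 3 given with values (edgeR). Psma5 was at a median of 130 CPM in non-dependent mice (102 to 178) and 153 CPM in naive mice (131 to 210). These medians are not adjusted for batch. Batch I, without naive mice, had the lowest geometric mean of Psma5 in IP among batches I to L (134 CPM). All intervals lay within -0.40 and 0.33. Psmb5, Psmb6 and Psmb7 were at -0.13, -0.10 and -0.09. Psmb8, Psmb9, Psmb10 and Nfe2l1 were at -0.69, -0.29, -0.21 and -0.03, and none was called, nor was any gene of these 5 lists.

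In input no member was called in any comparison by edgeR, DESeq2 or limma voom, while 0.355% of genes were called between dependent and non-dependent, 2.38% between dependent and naive and 0.122% between non-dependent and naive mice. An unadjusted p under 0.05 was found for 1, 0 and 1 members. The smallest p between dependent and non-dependent mice were those of Psmd14 (-0.14 ± 0.07, adjusted p = 0.682, edgeR), Psma1 (-0.14 ± 0.08) and Psmd3 (-0.10 ± 0.07). Between dependent and naive mice they were those of Psmc6 (0.12 ± 0.07, adjusted p = 0.514, edgeR), Psma5 (-0.13 ± 0.09) and Psma2 (-0.11 ± 0.08). Between non-dependent and naive mice they were those of Psmc6 (0.21 ± 0.08, adjusted p = 0.498, edgeR), Psmd9 (0.10 ± 0.08) and Psmb5 (-0.15 ± 0.13). The intervals of all members lay within -0.42 and 0.38. Psmb5 was at 0.15, 0.00 and -0.15 in the 3 comparisons, Psmb6 at -0.03, -0.06 and -0.03, and Psmb7 at 0.02, 0.02 and 0.01. The immunoproteasome genes again differed in dependent mice: Psmb8 was called higher against both groups (1.90 and 1.19), Psmb9 against non-dependent mice (2.01), and Psmb10 against neither (0.32 and 0.49). Against naive mice Psmb9 was at 1.21 and not called. Between non-dependent and naive mice Psmb8, Psmb9 and Psmb10 were at -0.71, -0.80 and 0.18, not called, and Nfe2l1 was within -0.05 and 0.00 in all 3 comparisons.

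Whether a treatment difference was larger on astrocyte ribosomes than in the tissue was tested in the 44 mice of batches I to L with both libraries. No member was called, in a test that called 0.0923% of 21659 genes for dependent against non-dependent, 0.356% for dependent against naive and 0.0% for non-dependent against naive. limma voom also called 0 members, and 6, 1 and 1 members had an unadjusted p under 0.05. The smallest p in the first comparison were those of Psma1 (0.26 ± 0.08, adjusted p = 0.296, edgeR), Psmd11 (0.23 ± 0.08) and Psma5 (0.22 ± 0.08). Psmd7, called in IP and not in input, gave a difference between the fractions of 0.14 ± 0.06 (adjusted p = 0.541, edgeR) in the first and 0.15 ± 0.07 (adjusted p = 0.547, edgeR) in the second. Its response is therefore not shown to differ between IP and input. Psmd11 (0.17 ± 0.09) and Psmc2 (0.13 ± 0.09) came next in the second. In the third they were Psmd9 (-0.28 ± 0.11, adjusted p = 0.761, edgeR), Psmc6 (-0.23 ± 0.12) and Psma4 (-0.14 ± 0.08). Psmb5, Psmb6 and Psmb7 lay between -0.10 and 0.05 in all 3. Psmb9 was called in the first (1.03 ± 0.22) and second (1.36 ± 0.24) comparison and Psmb8 in the second (0.93 ± 0.22), while Psmb8 in the first (0.90) and in the third (0.03), Psmb9 in the third (0.33), Psmb10 (0.37, 0.03 and -0.34) and Nfe2l1 (-0.02, -0.01 and 0.00) were not called.

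Most members varied more with batch than with treatment. In IP, 30 of 34 members differed between batches I, J, K and L (88.2%, against 46.6% of genes), and in input 28 of 34 (82.4%, against 52.1%). The median share of a member's variance tied to batch (R2) was 0.521 in IP and 0.607 in input, and that tied to treatment 0.077 and 0.030. Each R2 was of that factor alone, and the factors overlap, since batches I and L each lack a treatment group. Psmd7 went the other way in both fractions (treatment 0.33 and batch 0.063 in IP), as did Psma1 in input (0.065 and 0.052). Over 15567 features with a mean of 1 CPM or more the median R2 of batch was 0.277 and 0.304, and that of treatment 0.064 and 0.035. The lowest member had a mean of 43.0 CPM, so neither these features nor the genes tested are matched to the members in level. The direction was followed as the mean log2 CPM of batches J and K minus that of I and L. In IP this difference was above 0 for all 7 alpha genes and all 4 structural beta genes, with medians of 0.38 and 0.62, though for Psma1 it was only 0.02. It was below 0 for all 6 ATPases (median -0.25) and 6 of 8 lid genes (median -0.11). In input the medians were 0.37, 0.80, -0.47 and -0.28. Among core genes it was below 0 for Psmb7 in both fractions and for Psma1 in input (-0.03). It was above 0 in both fractions for 16 of the 34 and below 0 in both for 16. By the stricter count, in which the fitted levels of J and K, allowing for treatment and sex, both lay beyond those of I and L, 13 members were higher and 10 lower in IP, and 15 and 16 in input, with 13 higher in both.

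Psmb3, a structural beta gene, shows the upper end. In IP it was at a median of 246 CPM in batch I (188 to 308), 490 CPM in J (411 to 519), 442 CPM in K (267 to 541) and 287 CPM in L (262 to 349), so that J did not overlap I or L. In input it was at 256, 505, 501 and 242 CPM, and J and K did not overlap I or L (204 to 337 in I and L together, 387 to 712 in J and K). Psmd5, a chaperone of the base, shows the other end, at 58.8 CPM in I (36.3 to 72.4), 24.7 CPM in J (19.9 to 35.9), 31.7 CPM in K (26.9 to 48.1) and 42.1 CPM in L (34.9 to 52.2) in IP. Psmd2 went the same way, at 191, 95.03, 110 and 151 CPM. The batch F test of edgeR gave the smallest adjusted p in IP to Psma7 (2.1e-14), Psmb6 (2.32e-14) and Psmb3 (1.28e-13), and in input to Psmd3 (4.5e-16), Psmd2 (5.01e-16) and Psmb2 (6.97e-16). Psmb7, Psmd9, Psmd14 and Psmd7 did not pass in IP (adjusted p = 0.0551, 0.0758, 0.0541 and 0.22, edgeR). Psmb5 and Psmb6 were higher in J and K, by 0.62 and 0.63 in IP, and Psmb7 was at -0.04.

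Transcript length went with this split. The J and K minus I and L difference fell with the length of the principal transcript across the 34 members (Spearman's rho -0.695 in IP and -0.646 in input, across genes of the same libraries, which are not independent). The 16 members under 1500 bases had a median of 0.35 in IP and 0.40 in input, and the 18 longer ones -0.15 and -0.31. Protein-coding genes of 10 CPM or more showed the same step: those under 1500 bases had a median of 0.41 in IP and 0.50 in input, and longer ones -0.15 and -0.23. Over those 8889 and 8660 genes rho was 0.00 in both fractions. Pearson's r with log length was -0.129 in IP and -0.172 in input over those genes, and -0.669 and -0.603 over the members. The step is therefore not particular to the proteasome. Whether the members fell gradually with length or only by this step was not tested. Members did not all follow the step. In IP the longer core genes Psma2 (2911 bases), Psma3 (2846 bases) and Psmb1 (1758 bases) were at 0.55, 0.27 and 0.56. The longer lid gene Psmd8 (1540 bases) was at 0.18. The shorter 19S genes Psmc4 (1440 bases), Psmc5 (1316 bases) and Psmd6 (1387 bases) were at -0.26, -0.17 and -0.11. Length and role went together: median lengths were 899 to 1201 bases in the core roles and 1613 to 2961 bases in the ATPases, lid and scaffolds. Their separate parts were not tested. Mitochondrially encoded transcripts also took more of the counts in J and K: the medians in IP were 0.651% in I, 1.2% in J, 0.958% in K and 0.586% in L, and in input 8.26%, 14.6%, 14.6% and 7.46%. Their part in the batch differences was not tested. Outside the members, Nfe2l1 and Psmb10 were called between batches in both fractions and Psmb8 and Psmb9 in neither. The same test called 46.6% of all genes in IP and 52.1% in input.

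**Figure D5:**
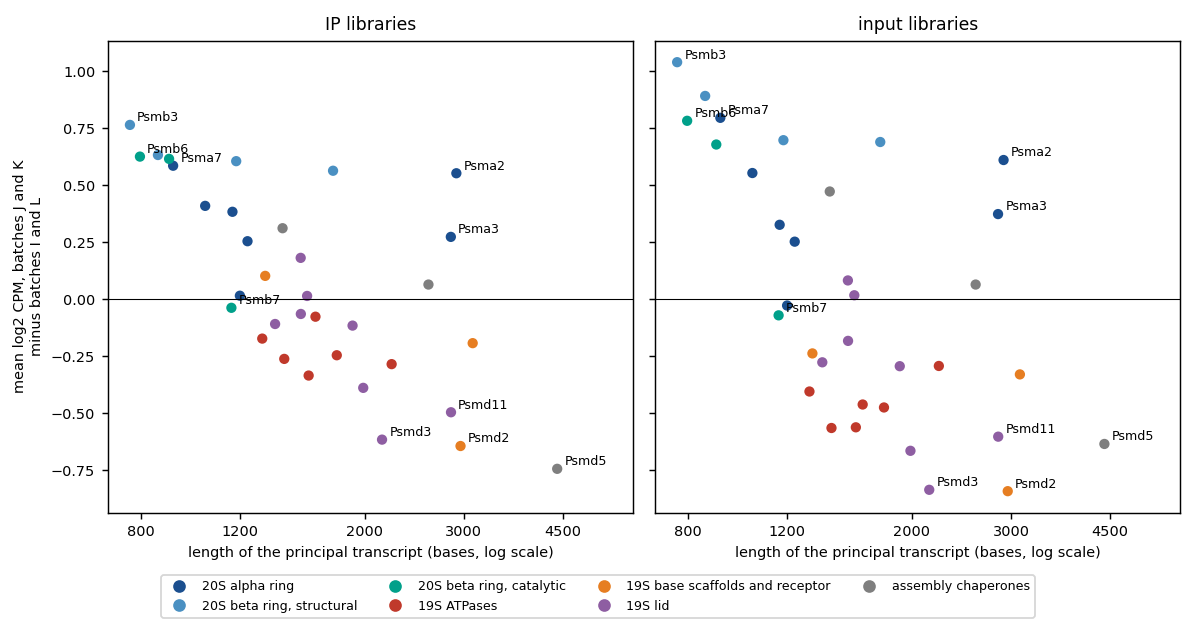
Difference in mean log2 CPM between batches J and K and batches I and L for each member, against the length of its principal transcript (log axis), in IP on the left and input on the right, coloured by role. The core genes sit mostly above 0 and at the short end, and the ATPases and the longer lid and scaffold genes below 0.

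The spread left after removal of batch and treatment means was described next. Principal component 1 of the 34 took 42.7% of their residual variance in 44 IP libraries and 50.1% in 47 input libraries. Over 9248 genes of 10 CPM or more in IP and 9012 in input it took 16.9% in each. These sets are far larger than the 34, so the shares are not like for like. In IP 33 of 34 loaded with the same sign, the exception being Psmd1, and in input all 34 did. The residual spread had a median SD of 0.19 in IP and 0.20 in input on the log2 scale, against 0.25 and 0.24 for genes of 10 CPM or more. Those genes are not matched to the members in level. Psmd7 was the steadiest member in IP (SD 0.12) and Psmd1 in input (0.12), and Psmc5 (0.25) and Psmb5 (0.30) varied most. The libraries share depth and RNA quality as well as biology, and which of these the component follows was not tested.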

How the data were processed

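Per the labels' protocols, RNA of nucleus accumbens punches was taken before and after translating ribosome affinity purification, and libraries were made with Takara SMART-Seq PLUS. The authors deposited raw gene counts, one column for each of 95 libraries of 49 mice. STAR 2.7.10b, Trimmomatic 0.39, FastQC 0.11.9 and the build GRCm38 are listed in the submitters' processing notes. How reads were assigned to genes, from which annotation and whether by strand, is not given in the sources used here, and 16 members overlap another annotated gene, 8 of them a protein-coding one. Symbols, positions and lengths came from GENCODE mouse M21.

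Tests on these deposited counts used edgeR 4.0.16 under R 4.3.3, by its quasi-likelihood method (TMM, filterByExpr with a minimum count of 10 and total of 15, robust dispersion) and adjusted over all genes tested by the Benjamini-Hochberg method. Genes were called at 0.05 or less. Treatments were compared within a fraction with a mean for each treatment and sex plus batch, in batches I to L. Differences average those of females and males. IP and input were compared with the mouse as a block in the 46 mice with both libraries; the dispersion of these fits was estimated from the top 5% of genes by abundance. The labels pair the libraries of a mouse: residuals correlated at a median r of 0.64 within a mouse and 0.45 with other mice of its batch, and over 0.1 in 45 of 46 mice. Standard errors came from the F statistic. The pipeline was checked on simulated counts. Levels are TMM-scaled CPM without batch adjustment. Length per gene is that of the APPRIS principal transcript. Nothing says how far mice shared litters or cages, so p-values measure the spread between these mice.

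The members and lists were chosen with earlier results of these data known. Every member is named, with values for those called in a comparison (the 3 of smallest p in a direction where over 6 were), otherwise for the 3 of smallest p, and for Psmb5, Psmb6 and Psmb7. Lists are given by counts with up to 4 called genes, and Nfe2l1, Psmb8, Psmb9 and Psmb10 always. Of the list genes, Paaf1 matched no gene, and 1 further list is not reported here. Alternatives were scaling by library size or DESeq2 size factors, no filter, limma 3.58.1 voom, DESeq2 1.42.0, subsets of batches, no batch term and no mouse block. The comparison of batches by transcript length was added after the values were seen.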

Additional observations from a re-analysis of the deposited data

Results flagged for a closer look

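No constitutive subunit had a treatment difference that itself differed between IP and input by the test, and 3 values of the immunoproteasome genes did. Psmb9 was raised more in IP than in input by dependence against non-dependent mice (difference of log2 fold changes 1.03) and against naive mice (1.36). For Psmb8 this difference was 0.93 against naive mice.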

How the results depend on the processing

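Precision is limited by 13 to 18 mice a group, uneven batches and changes mostly under 1.2-fold. The dependent mice of batches C and G are among the 18 and in the levels given, but in no main treatment fit. The count of 20 members called between IP and input stayed within 1.5 times under every alternative, at 25 with library size alone, where Psmb2 (-0.018), Psmb7 (-0.05), Psmc3 (-0.01), Psmc6 (-0.03) and Psmd6 (-0.081) changed sign. Without the mouse block 19 were called, Psmd6 being lost, and 0 in each of the 3 IP minus input comparisons, where the block changed no call of a member. In IP, the 1 call against non-dependent mice became 0 with library size alone, without the count filter, without the batch term, in batches J and K alone, and on leaving out batch I, J or L. The 1 call against naive mice became 2 with library size alone and with DESeq2, and 0 without the count filter, without the batch term, in batches J and K alone, and on leaving out batch I, J, K or L. Psmd7 stayed positive throughout, at 0.15 to 0.235 and 0.135 to 0.222. Apart from fewer mice in the subsets, the cause was not tested. The other counts stayed within 1.5 times. Of single-gene values, 762 kept side and direction, 57 lost a call, 6 gained one and 20 changed sign. Beside the 5 above, the values after a change of sign were, in IP, without batch term, Psmb5 against naive -0.13 and, non-dependent against naive, Psmb9 0.26 and Psmb10 0.027. In input without batch term, Nfe2l1 was 0.025 for dependent and 0.10 for non-dependent against naive. In batches J and K alone, against naive in IP, Psmb7 was 0.065 for dependent, and Psmb9 0.57 and Psmb10 0.018 for non-dependent mice, while in input Psmb5 was 0.17 for dependent mice. For IP minus input in these batches, Psmb5 was 0.031 (dependent against non-dependent) and -0.10 (non-dependent against naive), and Psmb7 0.015 (dependent against naive). Leaving out batch I gave Psmb9 0.45 (IP, non-dependent against naive), and leaving out batch K gave, in input, Psmb6 0.036 (dependent against naive) and Psmb7 -0.15 (non-dependent against naive). Without the mouse block the differences between fractions of Psmb8 and Psmb9 lost their calls (adjusted p = 0.84 to 1.0, edgeR).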
